A study of Crocodylus porosus with 60 samples.

Results

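The stomach of hatchling saltwater crocodiles (Crocodylus porosus) was profiled for microRNAs (miRNAs) by small RNA sequencing, and its library was set against the tissues outside the gut. The stomach contributed 1 library of the 15 in the deposited table. It was compared with the 13 libraries of 8 non-gut tissues: testis (4 libraries), heart (2), brain (2) and jaw skin, tongue, cloaca, liver and spleen (1 each). The remaining library, of small intestine, was kept out of the comparison and is given beside it. All animals were untreated hatchlings raised alike, some of them runts of 386.2 ± 23.6 mm (SD) at 359 days and the others normal hatchlings of 740.2 ± 73.5 mm at 373 days. The stomach column names no size class, whereas the testis, heart and brain columns name runts and normal hatchlings. Of the 60 deposited samples 4 carry the stomach name, but the table has 1 stomach column, so there is no replicate of the stomach and every difference below is a description without a test. The cloaca values come from a column headed cloacal gland and may be those of the gland, since the sample titles name the cloaca.

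A miRNA is a short RNA that guides the silencing machinery to matching messenger RNAs, and many miRNAs are made mainly in 1 kind of cell. The wall of a vertebrate stomach holds thick layers of smooth muscle under a simple glandular epithelium, with scattered endocrine cells. In mammals miR-145 is the leading miRNA of smooth muscle, the miR-200 family keeps cells epithelial by repressing ZEB1 and ZEB2, and miR-194 and miR-215 are made in gut, liver and kidney epithelium. The squamous epithelium of skin and mouth instead makes miR-203 and miR-205. A bulk library mixes these cells, so fewer cells of a type and less RNA per cell cannot be told apart in any level given here.

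Levels are RPM as deposited, that is, reads divided by a library total so that libraries of different depth can be compared. One read was worth 0.632 RPM in the stomach library, which gives an estimated depth of 1580000 reads, within the range of 540000 to 4760000 over the 15 libraries. Intervals in brackets are exact 95% Poisson intervals on the stomach reads and cover counting error only. Of 647 differently named mature miRNAs (rows of the table), 431 had a level above 0 in stomach, and a level of 0 there allows up to 3 reads, or 1.9 RPM. Arms and copies are named as in the table, and arms were not checked against sequences. By these names 509 rows carry an N with a number and 138 rows the name of a known family. Marker lists were set against the label of the library. The summed levels of the smooth muscle list, nearly all of it miR-145, and of the miR-200 list were above those of all 13 non-gut libraries. The endocrine and HOX cluster lists stood at place 4 of the 9 tissues as deposited, and the stratified epithelium list, at 10.1 RPM in stomach, was below 11 of the 13 libraries.

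The stomach library was dominated by its first rows. The first 3 held 47.8% of the listed reads, the first 10 held 79.1% and the first 25 held 92.5%. They were led by miR-N1 (133984 RPM [133400 to 134600]), miR-148-5p (113110 RPM [112600 to 113600]) and miR-145 (107486 RPM [107000 to 108000]). Next came miR-N444, miR-26a-5p, miR-30a-5p, miR-187-5p, miR-200a-5p, miR-181a-5p and miR-200b-5p, at 55426 to 14646 RPM. In the mean of the 8 non-gut tissues the order was another one. Among the first 10 rows of stomach, miR-148-5p, miR-N444, miR-26a-5p, miR-30a-5p and miR-181a-5p also held places 1 to 5 there. By contrast miR-145 stood at place 17, miR-N1 at 18, miR-200b-5p at 31, miR-200a-5p at 32 and miR-187-5p at 44.

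**Figure D1:**
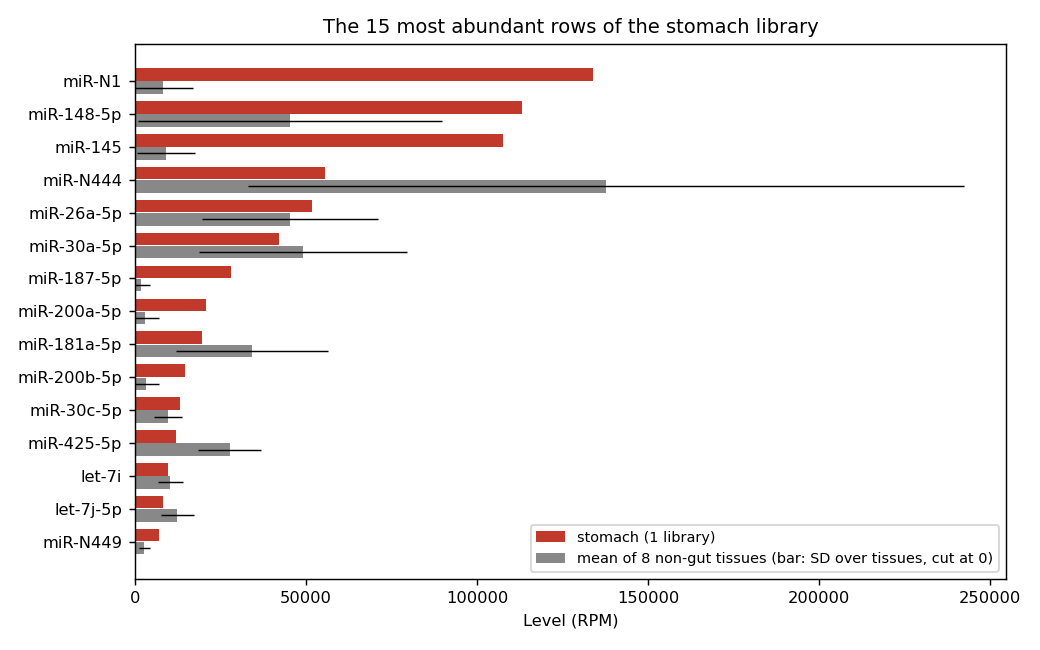
Levels (RPM, linear axis) of the 15 most abundant rows of the stomach library, with stomach as the upper bar of each pair and the mean of the 8 non-gut tissues as the lower bar; the line is the SD over the 8 tissues. The stomach bar is far above the non-gut bar for miR-N1, miR-145, miR-187-5p, miR-200a-5p and miR-200b-5p, and below it for miR-N444, at 55426 against 137700 RPM.

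For the comparison, 186 rows averaged at least 10 RPM over the stomach level and the non-gut mean. Of these, 14 (7.53%) were at least 4-fold higher in stomach than in the non-gut mean and 48 (25.8%) were at most 1/4 of it, while 124 lay between. Of 117 compared family-named rows 10 (8.55%) were higher and 27 (23.1%) lower, and of 69 N-numbered rows 4 (5.8%) and 21 (30.4%). The stomach level was above that of every non-gut library in 14 rows (7.53%) and below that of every non-gut library in 14 others (7.53%). Of the 14 higher rows 13 were above every library, and 9 of the 48 lower rows were below every library. These shares follow partly from the rules and cannot be set against each other. A non-gut tissue can exceed 4-fold the mean only by holding over 50% of the level summed over the 8 tissues. By contrast, 1/4 of the mean sets no bound on the lowest library. A row undetected in even a single non-gut library could not be below every library. Stomach was the highest of the 9 tissues in 16 rows and the lowest in 26.

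An arithmetic mean leans towards the tissue with the highest level, and the median log2 fold over all compared rows was -0.89 (quartiles -1.86 and 0.11). The excess of lower rows depended on that choice, which also entered the filter. With the median of the 8 tissues in both filter and fold, 161 rows passed, of which 26 were higher and 11 lower. Higher rows were then 70.3% of those past 4-fold, compared with 22.6% against the mean, where 186 rows passed. With the geometric mean 164 rows passed and the share was 57.5%. How much of the change came from the fold and how much from the filter was not separated. Folds below are against the mean. Where the median tissue turns the sign of a named row or list sum, or moves it across 4-fold, its value is given as well. Rows at 0 in stomach have no log2 fold, so none is given for them.

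**Figure D2:**
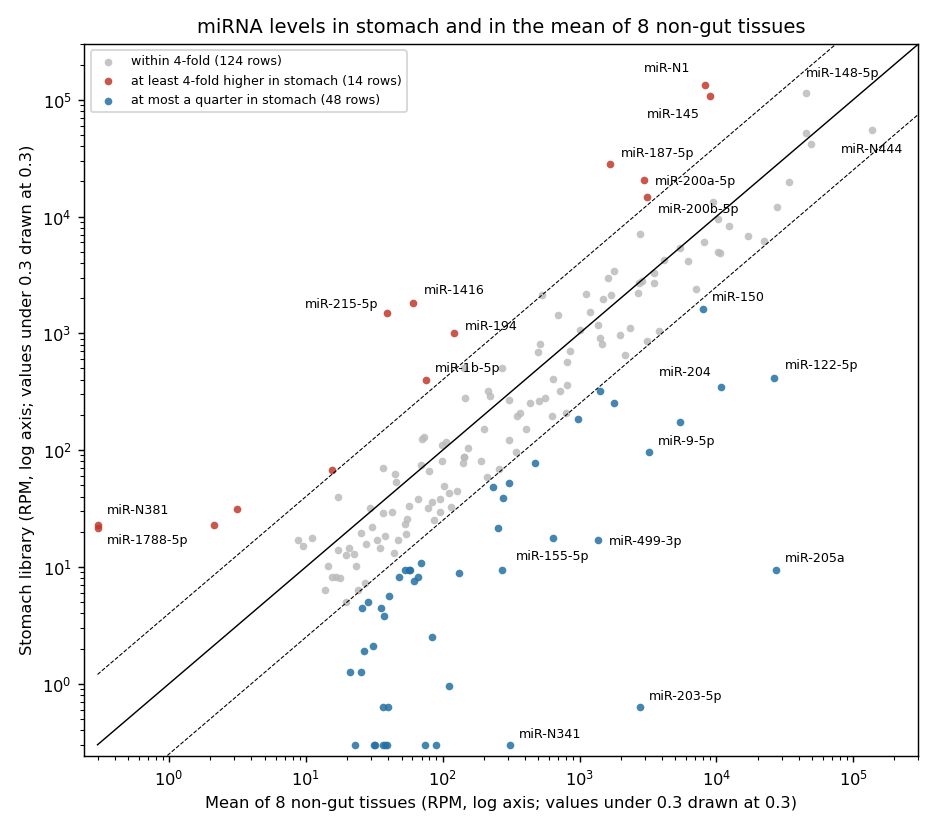
Level of each of the 186 compared rows in stomach (vertical axis) against the mean of the 8 non-gut tissues (horizontal axis), both in RPM on log axes; the solid line marks equal levels and the dashed lines a 4-fold difference. The 14 higher rows include abundant ones such as miR-N1 and miR-145, while miR-203-5p and miR-205a lie farthest below the line among rows detected in stomach.

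Smooth muscle stood out through a single member of its list. miR-145, which in mammals promotes the contractile state of smooth muscle, reached 107486 RPM in stomach, against a non-gut mean of 9012 ± 8473 RPM (SD over 8 tissues), a fold of 11.9. Among the 8 tissues it ran from 1372 RPM in jaw skin over a median of 7316 RPM to 27630 RPM in spleen. The highest non-gut library, spleen, was 3.89-fold below stomach. Small intestine, whose wall also holds smooth muscle, had 62441 RPM.

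The other matched members of that list, miR-199-5p and miR-214-5p, which are made from 1 transcript in fibroblasts and other mesenchyme, were not higher in stomach. miR-199-5p was at 2206 RPM in stomach, against a mean of 2669 ± 1490 RPM and a range of 322.9 RPM in brain to 4871 RPM in spleen. miR-214-5p was at 814.8 RPM in stomach, against 1454 ± 848.3 RPM and a range of 136.8 RPM in brain to 2881 RPM in cloaca. Stomach held place 6 of 9 for the first and place 7 for the second. The list therefore counted 1 of 3 rows at 4-fold or more, with a median log2 fold of -0.28, beside -0.89 over all compared rows. Its sum of 110500 RPM in stomach, against 13140 RPM in the non-gut mean, was nearly all miR-145.

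Rows of striated muscle differed, with stomach next after heart and tongue in the miR-133 rows and miR-1-1-5p, next after heart in miR-1b-5p and at place 6 of 9 in miR-206 and miR-499-3p. miR-133-5p, a miRNA of skeletal and heart muscle, had 5345 RPM in stomach, against 32560 RPM in heart, 9532 RPM in tongue and at most 655.8 RPM in each of the other 6 tissues. The non-gut mean of 5414 RPM is set by heart, and the median tissue had 223.9 RPM. Without heart the log2 fold of miR-133-5p was 1.80, compared with -0.02, and against the median tissue it was 4.58. miR-133-5p stood at 2 times the value of miR-133c-5p in every library, so the reads of the pair could not be told apart.

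miR-1-1-5p, whose family promotes muscle differentiation in mammals, had the same order of tissues, with 251.6 RPM in stomach, against 2618 RPM in heart and 626.1 RPM in tongue. miR-133-3p had 66.5 RPM in stomach, against 479.3 and 137.3 RPM in those tissues. A further copy of the family, miR-1b-5p, was called higher in stomach, with 400.7 RPM [370.1 to 433.1] against a mean of 75.2 ± 183.8 RPM (fold 5.33). It was above 12 of the 13 non-gut libraries. The heart libraries were far apart for this row, at 155.5 RPM in the normal hatchling and 903.3 RPM in the runt. Without the heart of the normal hatchling the log2 fold was 1.72 and the call was lost, and without the heart of the runt it was 3.81.

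The members that mark skeletal or heart muscle alone had 0 to 17.1 RPM in stomach. miR-206, of skeletal muscle, was at 0.63 RPM in stomach, which is 1 read, against 248.1 RPM in tongue. miR-208a, encoded in an intron of a heart myosin gene in mammals, was at 0 in stomach, against 22.6 RPM in heart. Stomach shared place 3 of 9 for miR-208a with other tissues at 0, and the row did not pass the filter. miR-499-3p, also from a myosin intron, had 17.1 RPM in stomach, against 10800 RPM in heart. Its log2 fold of -6.33 was -5.58 without the heart of the runt and -0.71 without both hearts, and -0.66 against the median tissue, so that the call was lost. Over the 8 rows of the striated muscle list, 1 of the 7 compared was higher and 2 were lower, beside 7.53% and 25.8% of all compared rows, with a median log2 fold of -0.25, beside -0.89. They summed to 8754 RPM in stomach, against 10130 RPM, and the log2 fold of the sum was 1.79 without heart and 4.34 against the median tissue, compared with -0.21. Small intestine showed miR-133-5p at 2346 RPM and miR-1b-5p at 465.1 RPM. How much of these levels came from smooth or striated muscle fibres was not tested.

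**Figure D3:**
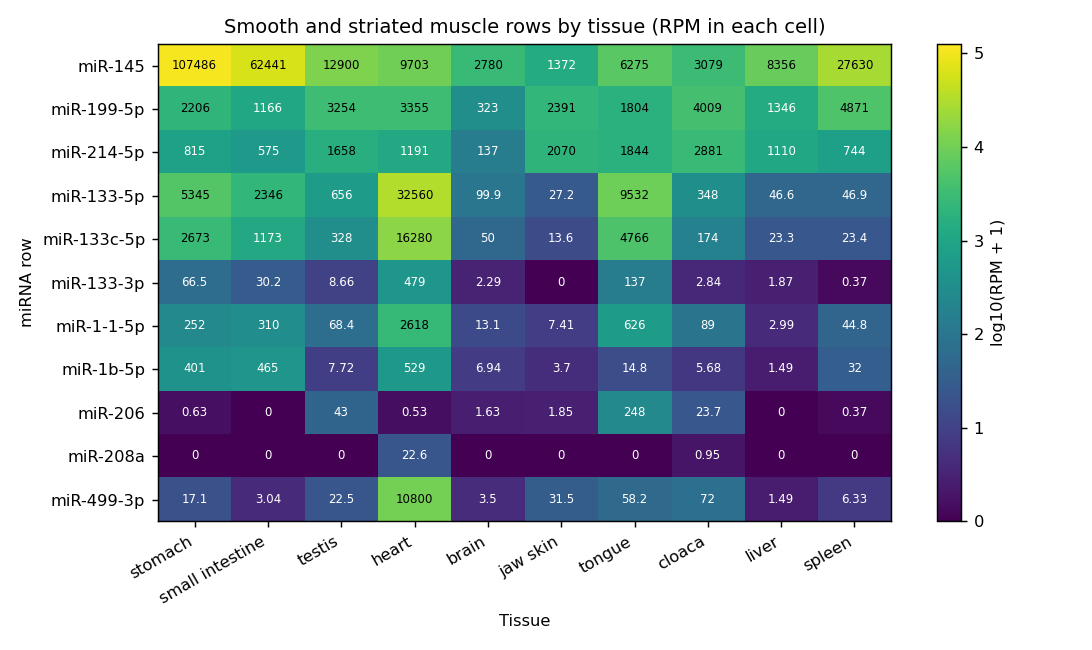
Levels in RPM (numbers in the cells; colour is log10 of RPM + 1) of the smooth and striated muscle rows in stomach, small intestine and the 8 non-gut tissues, with testis, heart and brain as means of their libraries. miR-145 is brightest in stomach, whereas miR-133-5p is brightest in heart and tongue and next highest in stomach.

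The miR-200 rows of epithelium were all highest in stomach among the 9 tissues. miR-200a-5p had 20707 RPM in stomach [20480 to 20930], against a mean of 2972 ± 4022 RPM, a fold of 6.97. miR-200b-5p had 14646 RPM in stomach, against 3108 ± 3914 RPM, a fold of 4.71. miR-429-3p, the third member, had 2130 RPM in stomach, against 534.8 ± 750.8 RPM, which at 3.98-fold fell just short of the call. It nevertheless exceeded all 13 non-gut libraries, except when libraries were scaled without the 2 most abundant rows, where it came next after tongue. Its log2 fold was 2.64 without tongue and 5.18 against the median tissue, both past the call.

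The non-gut tissues split into those with much and those with little of these rows. For miR-200a-5p, tongue (9558 RPM), jaw skin (8387 RPM) and cloaca (4667 RPM) were high, while testis, heart, brain, liver and spleen lay between 79.3 and 541.7 RPM. The median tissue had 406.8 RPM. The lead of stomach over the highest tissue, always tongue, was 2.17-fold for miR-200a-5p, 1.58-fold for miR-200b-5p and 1.13-fold for miR-429-3p. The list summed to 37480 RPM in stomach, against 6615 RPM in the non-gut mean, and to 18250 RPM in small intestine. Its median log2 fold was 2.24. Rescaling the libraries over the listed rows without the 2 most abundant lowered miR-200b-5p to a log2 fold of 1.98, just under the call.

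Rows of squamous epithelium ran the other way. miR-205a, a miRNA of basal epithelial cells, had 9.47 RPM in stomach [5.3 to 15.6], against 116100 RPM in jaw skin, 76174 RPM in cloaca and 24437 RPM in tongue. Its other non-gut tissues lay between 4.84 and 66.1 RPM, and stomach was among them. miR-203-5p, whose family in mammalian skin represses the stem cell factor p63, had 0.63 RPM in stomach, a single read with an interval of 0.0158 to 3.52 RPM. That row reached 16180 RPM in jaw skin and 3913 RPM in tongue. Without jaw skin the log2 folds were -10.57 for miR-205a and -10.37 for miR-203-5p, compared with -11.48 and -12.09. The tissues that came nearest to stomach in the miR-200 rows were thus the ones that differed most from it here.

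The gut epithelium list held 2 rows called higher and 1 that was not called. miR-215-5p, which with miR-192 and miR-194 is switched on by HNF transcription factors in mammalian gut, had 1479 RPM in stomach [1419 to 1540], against a mean of 39.3 ± 40.2 RPM. Its fold of 37.6 was the largest among rows with at least 100 RPM in stomach. The non-gut tissues ranged from 1.27 RPM in tongue over a median of 24.9 RPM to 106.8 RPM in spleen, and the highest single library was a testis at 250.7 RPM. miR-194 had 999.2 RPM in stomach, against 121.9 ± 218.7 RPM, a fold of 8.2, with liver next at 647 RPM. Without liver its log2 fold was 4.41, compared with 3.03.

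These stomach levels were far below those of small intestine, at 59669 RPM for miR-215-5p and 13802 RPM for miR-194. With small intestine counted among the other tissues, both folds changed sign. miR-31, the remaining member, had 196.4 RPM in stomach, against 632.8 ± 806.1 RPM, and was highest in jaw skin at 2413 RPM. Its log2 fold of -1.69 was -0.95 without jaw skin. The list summed to 2674 RPM in stomach, against 794.1 RPM in the non-gut mean, with jaw skin close behind at 2448 RPM. The 2 of 3 rows called higher stand beside 7.53% of all compared rows, and the median log2 fold of 3.03 beside -0.89. Against the median tissue the log2 fold of the sum was 2.81, compared with 1.75. When libraries were scaled to the sum of the listed rows, with or without the 2 most abundant, jaw skin came before stomach.

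Of the abundant rows that belong to no list, miR-187-5p set stomach apart from small intestine as well. miR-187-5p had 28102 RPM in stomach [27840 to 28360], against a mean of 1666 ± 2770 RPM, a fold of 16.9. Heart followed at 8156 ± 2315 RPM (SD, n = 2), then brain and testis at 2282 and 1943 RPM, while jaw skin was lowest at 44.5 RPM. Small intestine had 175.6 RPM. Without heart the log2 fold of miR-187-5p was 5.25, compared with 4.08.

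miR-1416 had 1832 RPM in stomach [1766 to 1900], against 60.3 ± 49.4 RPM, a fold of 30.4. Its non-gut tissues lay between 7.47 RPM in liver and 163.9 ± 47.5 RPM in testis (SD, n = 4). Small intestine, at 546 RPM, was above all of them and below stomach. By level the row held place 36 in stomach, against place 124 in the non-gut mean.

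miR-N1, the most abundant row of stomach, carries no family name, and it was not checked here whether such rows are real miRNAs. Its 133984 RPM in stomach stood against 8196 ± 8873 RPM, a fold of 16.3, with spleen highest at 29110 RPM and jaw skin lowest at 1183 RPM. Small intestine had nearly the same level as stomach, 125413 RPM. Without spleen the log2 fold of miR-N1 was 4.69, compared with 4.03. miR-N444, the other abundant N-numbered row, took the opposite place, with 55426 RPM in stomach, against 137700 ± 104800 RPM and 374700 RPM in testis. Without these 2 rows, N-numbered rows held 1.67% of the listed stomach reads.

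**Figure D4:**
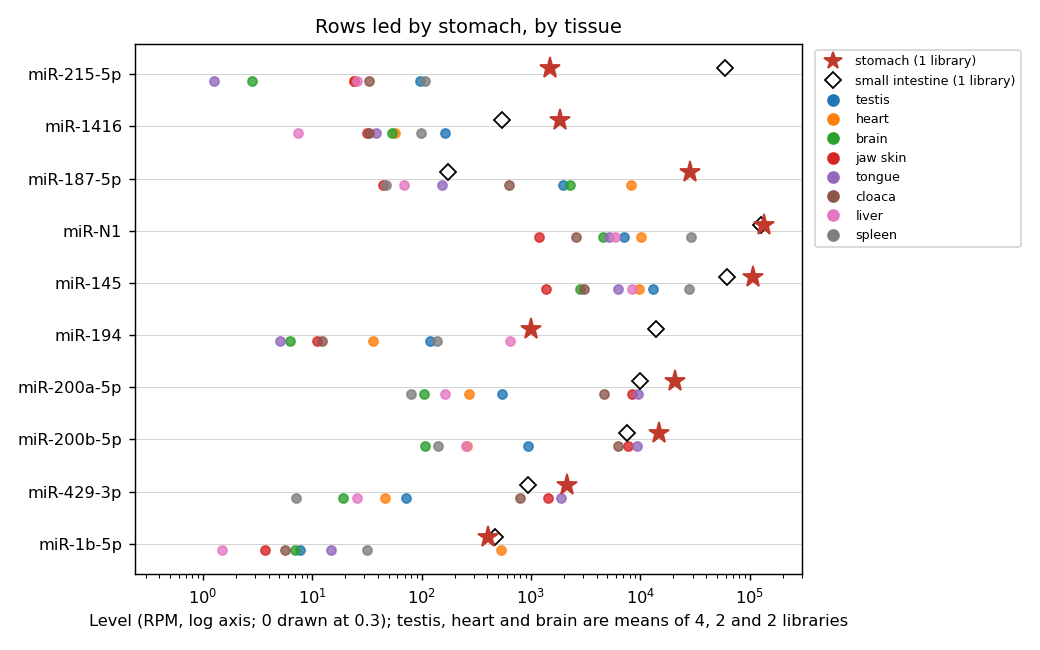
Levels (RPM, log axis) of the 10 rows with the largest fold among rows with at least 100 RPM in stomach; stars are stomach, open diamonds small intestine and dots the 8 non-gut tissues (testis, heart and brain as means). The star is right of every dot in all rows except miR-1b-5p, where heart is higher at 529.4 RPM, and the diamond is far right of the star for miR-215-5p and miR-194.

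A further 5 of the 14 higher rows were scarce, and they are named here after their values were seen. miR-1662 had 68.2 RPM in stomach [56 to 82.4], against 15.6 ± 13.9 RPM, and its highest non-gut library, a brain, was close at 63.1 RPM. miR-1788-5p had 21.5 RPM in stomach [14.9 to 30], against 0.87 RPM, or 1 read, in a testis library and 0 in the other 12. miR-N381 had 22.7 RPM in stomach and was at 0 in all 13 non-gut libraries and in small intestine, which makes it at least 9.12-fold higher against a floor of 3 reads per library. miR-N101 and miR-N121 had 22.7 and 31.6 RPM in stomach, against 2.11 and 3.12 RPM. Each of these stomach levels rests on 34 to 108 reads. miR-1788-5p, miR-N381, miR-N101 and miR-N121 passed the filter of 10 RPM only through their stomach level. With their non-gut means any row past the filter would be called higher, so their calls followed from the filter.

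Just inside the 4-fold call were miR-1b-5p, miR-200b-5p and miR-1662 (5.33, 4.71 and 4.37), and just outside it miR-429-3p, miR-10a-5p and miR-N449 (3.98, 3.52 and 2.55). Of the 14 higher rows, 9 had a small intestine level of at least 4 times the non-gut mean. That count takes in miR-N381, which was at 0 in both and so was not higher in small intestine. Both folds divide by that mean, and the share of all compared rows so high in small intestine is not given here. In 4 of the 14 stomach was at least 4-fold above small intestine, and in 2, miR-215-5p and miR-194, it was at most 1/4 of it. Over all 186 compared rows, taken as RPM + 1, stomach was at least 4-fold above small intestine in 17 and at most 1/4 of it in 17.

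Among the 10 most abundant rows of stomach, miR-148-5p had the largest fold under 4. This miRNA, whose family in mammals represses the DNA methyltransferase Dnmt1, had 113110 RPM in stomach, against 45270 ± 44500 RPM, a fold of 2.5. Only liver was higher, at 143400 RPM, and jaw skin was lowest at 12040 RPM. The median tissue had 25480 RPM, and against it the log2 fold was 2.15. miR-152-3p, of the same family, had 695.4 RPM in stomach, against 499.7 ± 177.6 RPM. miR-N449 had 7019 RPM in stomach, against 2758 ± 1573 RPM, but a heart library reached 7889 RPM. miR-26a-5p, miR-30a-5p, miR-30c-5p and let-7i differed from the non-gut mean by less than the SD over tissues, and the log2 fold of miR-30a-5p was 0.12 against the median tissue, compared with -0.22. The sum of miR-148-5p and miR-152-3p had a log2 fold of 2.13 against the median tissue, compared with 1.31.

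The miR-23, miR-24 and miR-27 rows, whose clusters are linked to vessel and muscle cells in mammals, had higher levels in stomach than in the non-gut mean at the deposited scaling, without a call. Their sum was 9922 RPM in stomach, against 5782 ± 4393 RPM, and stomach was next after jaw skin at 13310 RPM as deposited, but at place 4 of 9 when scaled to the listed rows with or without the 2 most abundant. miR-27-5p had 3394 RPM in stomach, against 1774 RPM, and miR-24-3p had 2960 RPM, against 1613 RPM. miR-23a had 1442 RPM in stomach, against 696.2 RPM, and miR-23-3p had 2127 RPM, against 1700 RPM. All 4 folds lay between 1.25 and 2.07. miR-126-5p, of endothelium, had 2706 RPM in stomach, against 3497 ± 3472 RPM, with a log2 fold of 0.63 against the median tissue, compared with -0.37.

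The endocrine rows miR-375 and miR-7, which in mammals mark hormone-secreting cells of gut and pancreas, were neither higher nor lower by 4-fold against the mean. miR-375 had 2179 RPM in stomach [2107 to 2253], against 1112 ± 2142 RPM. Its tissues fell apart widely, with 5768 RPM in testis, 2954 RPM in tongue and a median of 35.1 RPM. The testis libraries themselves were split, at 10567 and 12144 RPM in runts and 234 and 128.4 RPM in normal hatchlings. The log2 fold of miR-375 was 2.28 without testis and 5.96 against the median tissue, both past 4-fold, compared with 0.97. miR-7 had 910.2 RPM in stomach, against 1409 ± 2085 RPM, with testis and brain above it at 5372 and 4100 RPM. Its log2 fold of -0.63 turned to 0.11 without testis and to 1.23 against the median tissue. The pair summed to 3089 RPM in stomach, against 2521 RPM, and the log2 fold of the sum was 1.26 without testis and 2.87 against the median tissue, compared with 0.29. Small intestine had 3467 RPM of miR-375 and 931.6 RPM of miR-7. miR-216a, of pancreatic acinar cells, was at 0 in stomach, against 6 RPM in the non-gut mean and 295.3 RPM in small intestine. That mean is set by brain at 37.5 RPM. Stomach shared place 5 of 9 for miR-216a with other tissues at 0, and the row did not pass the filter.

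Rows encoded in the HOX clusters, which pattern the body from front to back, differed among themselves. miR-10a-5p had 507.5 RPM in stomach, against 144.2 ± 204.3 RPM, a fold of 3.52, and was above 11 of the 13 libraries, with spleen at 586.8 RPM. Its log2 fold was 2.65 without spleen and 3.21 against the median tissue, both past the call. miR-10c-5p had 208.1 RPM in stomach, against 799.4 ± 1510 RPM, but testis with 4314 RPM sets that mean, and the median tissue had 41.8 RPM. Its log2 fold of -1.94 was -0.51 without testis and 2.32 against the median tissue. miR-196 was at 0 in stomach and in small intestine, against 519.8 RPM in cloaca and 189.8 RPM in testis. It was at least 47.1-fold lower in stomach than the non-gut mean against the floor of 3 reads, but that mean is set by cloaca and testis. The list summed to 715.6 RPM in stomach, against 1033 RPM, and the log2 fold of the sum was 0.54 without testis and 2.87 against the median tissue, compared with -0.53.

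The 48 lower rows were mostly those of some other tissue. In 38 of the 48 a single non-gut tissue held over 50% of the level summed over the 8 tissues, as it did in 63 of all 186 compared rows. A row held mainly by 1 tissue has a mean far above most other tissues, so the call itself favours such rows. The highest tissue was brain in 13 of the 48, testis in 9, spleen in 9, jaw skin in 6, heart in 4, cloaca and liver in 3 each and tongue in 1. In 34 of the 48, small intestine was also at most 1/4 of the non-gut mean, by which both tissues are divided. The tallies of highest tissue and of small intestine have no share over all compared rows beside them, so they describe these rows only. Stomach stood at or above the median tissue in 14 of the 48, with ties at 0 such as miR-202-5p included. It was at most at 1/4 of that tissue in 24. The 11 rows given above as lower against the median are fewer, since the filter there used the median too.

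miR-122-5p shows the difference between the mean and the median tissue. This liver miRNA had 416.2 RPM in stomach [385.1 to 449.3], against 208200 RPM in liver, which lifts the non-gut mean to 26220 RPM, so it was called 63-fold lower. Yet stomach was above 10 of the 13 libraries and above the median tissue at 90.4 RPM. Its log2 fold was 0.84 without liver and 2.20 against the median tissue, compared with -5.98. Small intestine had a like level, 445.5 RPM. miR-204, a miRNA of pigment cells and other tissues, was low by either measure, at 349.1 RPM in stomach, against a mean of 10770 RPM, a median tissue of 3264 RPM and 55600 RPM in jaw skin. Without jaw skin its log2 fold was -3.64, compared with -4.95. miR-204 stood at 2 times the level of miR-211 in every library, so reads of the pair could not be told apart. miR-211 had 174.5 RPM in stomach, against 5384 RPM.

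All 4 compared rows of white blood cells were lower in stomach, beside the 25.8% of all rows. miR-150, of mature lymphocytes, had 1625 RPM in stomach, against 7941 ± 11620 RPM, with spleen at 36220 RPM and brain lowest at 817.1 RPM. miR-155-5p, raised in activated lymphocytes, had 17.7 RPM in stomach, against 635.1 ± 1004 RPM. For miR-155-5p stomach was the lowest of the 9 tissues as deposited, but at place 8 under trimmed-mean scaling, and 2 of the 13 non-gut libraries were below it. Without spleen the log2 fold of miR-155-5p was -4.26, compared with -5.17, and that of miR-150 was -1.26, compared with -2.29, so that its call was lost. Against the median tissue miR-150 had a log2 fold of -1.15 and was not called. Small intestine had 343 RPM of miR-155-5p. miR-223, of granulocytes, had 39.2 RPM in stomach, against 277.1 RPM, and miR-146a-5p, induced in inflammation, had 4.42 RPM, against 35.6 RPM. The sum was 1686 RPM in stomach, against 8888 RPM in the non-gut mean, and its log2 fold was -1.38 without spleen and -1.20 against the median tissue, compared with -2.40. miR-144-5p, of red blood cells, had 3.79 RPM in stomach, against 230.3 RPM in spleen and a median tissue of 10.5 RPM. Its call was also lost without spleen, at a log2 fold of -1.30, and against the median tissue, at -1.47, compared with -3.29.

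Of the 13 rows of brain and neurons 6 were compared and 5 of these were lower, beside 25.8% of all compared rows. Of the 13 rows 5 were at 0 in stomach, as were 216 of all 647. miR-9-5p, of neural progenitors, had 96 RPM in stomach, against 24520 ± 15940 RPM over the 2 brain libraries. Liver, testis, heart and tongue lay between 80.7 and 209.3 RPM. Its log2 fold was -0.74 without brain and -0.73 against the median tissue, compared with -5.06, and the call was lost in both. It was -4.23 without the brain of the normal hatchling. miR-128-1-5p, the highest of the list in stomach, had 1055 RPM, against a mean of 3810 RPM and a median tissue of 1264 RPM. The list summed to 1647 RPM in stomach, against 10050 RPM in the non-gut mean, with a log2 fold of -0.24 without brain and -0.15 against the median tissue, compared with -2.61. miR-139-5p, highest of the nerve and glia rows, had 323.4 RPM in stomach, against 1420 RPM, but without the brain library of the runt its log2 fold was -0.83 and the call was lost, as it was against the median tissue, at -0.65. Without the brain of the normal hatchling it was -2.81, compared with -2.13. That list summed to 406.4 RPM in stomach, against 1604 RPM.

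The gonad and ciliated cell rows had 0 to 38.2 RPM in stomach. miR-202-5p, of the gonads, was at 0 in stomach, against 252.8 RPM in testis. Heart, jaw skin, tongue, cloaca and liver were at 0 too, so the row was not low in stomach against the median tissue. miR-N341 was at 0 as well, against 2462 RPM in testis, and at least 163-fold below the non-gut mean. That mean of 308.6 RPM is set by testis, and stomach shared place 5 of 9 with other tissues at 0. miR-34b-5p, of motile-ciliated cells, had 0.95 RPM in stomach, against 451.4 RPM in testis, 428.1 RPM in brain and a median tissue of 2.79 RPM. Its log2 fold of -6.88 was -6.06 without testis, -6.13 without brain and -1.56, short of a call, against the median tissue. miR-449a-5p, of the same cells, had 38.2 RPM in stomach, against 95.7 RPM. The ciliated cell sum had a log2 fold of -0.79 against the median tissue and -1.73 without brain, compared with -2.34. In all, 9 compared rows were at 0 in stomach, and 7 of them were highest in testis. A row at 0 in stomach could pass the filter only through its non-gut level. How many of all compared rows were highest in testis is not given here.

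Other families, most of them made in many kinds of cell, separated into some at the level of the other tissues and some below it. let-7 rows, which accumulate as cells differentiate, summed to 38870 RPM in stomach, against 52750 ± 14050 RPM. In that sum let-7j-5p stood at 2 times let-7a-5p in every library, so the reads of the pair could not be told apart. The miR-30 family summed to 57660 RPM in stomach, against 60470 RPM, with log2 folds of 0.22 against the median tissue and -0.07 against the mean, and the miR-26 row to 51640 RPM, against 45220 RPM. miR-181a-5p had 19653 RPM in stomach, against 34180 ± 22240 RPM. The miR-29 row had 17.1 RPM in stomach, against 8.77 RPM, and the miR-130 family 71.4 RPM, against 87.2 RPM, with log2 folds of 0.11 against the median tissue and -0.29 against the mean. The sums of miR-221 and miR-222 were 1757 RPM in stomach, against 4507 RPM, and those of miR-183 and miR-96, of sensory epithelia, were 33.5 RPM, against 116.9 RPM. Stomach held place 5 of 9 for that pair as deposited, and without tongue its log2 fold was -0.40, compared with -1.80.

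Stomach was the lowest of the 9 tissues in 3 such sums. The miR-17-92 group, tied to proliferation in mammals, summed to 7373 RPM in stomach, against 24620 ± 11440 RPM, with brain next at 8159 RPM. All 8 of its rows had negative log2 folds against the mean, with a median of -1.08. Over all compared rows the median was -0.89 and the upper quartile 0.11, so most rows were negative there too. Of the group 1 row was called lower, beside 25.8% of all compared rows. miR-92-1-5p, its most abundant row, had 6156 RPM in stomach, against 22120 ± 11480 RPM. The miR-99-5p, miR-100-5p and miR-125b-5p rows summed to 8381 RPM in stomach, against 18750 ± 7989 RPM, a sum below those of all 13 libraries that was mostly miR-125b-5p. miR-99-5p had 568.8 RPM in stomach, against 811.1 RPM, at place 7 of 9, and miR-100-5p had 1061 RPM, against 1015 RPM, at place 5. miR-191 and miR-425-5p, of 1 cluster, summed to 16850 RPM in stomach, against 38320 ± 13390 RPM, and stomach came to place 8 of 9 for them under trimmed-mean scaling. The miR-15/16 family was next to lowest, at 1204 RPM in stomach, against 3842 RPM. Its log2 fold was -0.83 without spleen, compared with -1.67. Within it miR-16-5p and miR-16a-5p had equal levels in every library, so their reads could not be told apart.

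**Figure D5:**
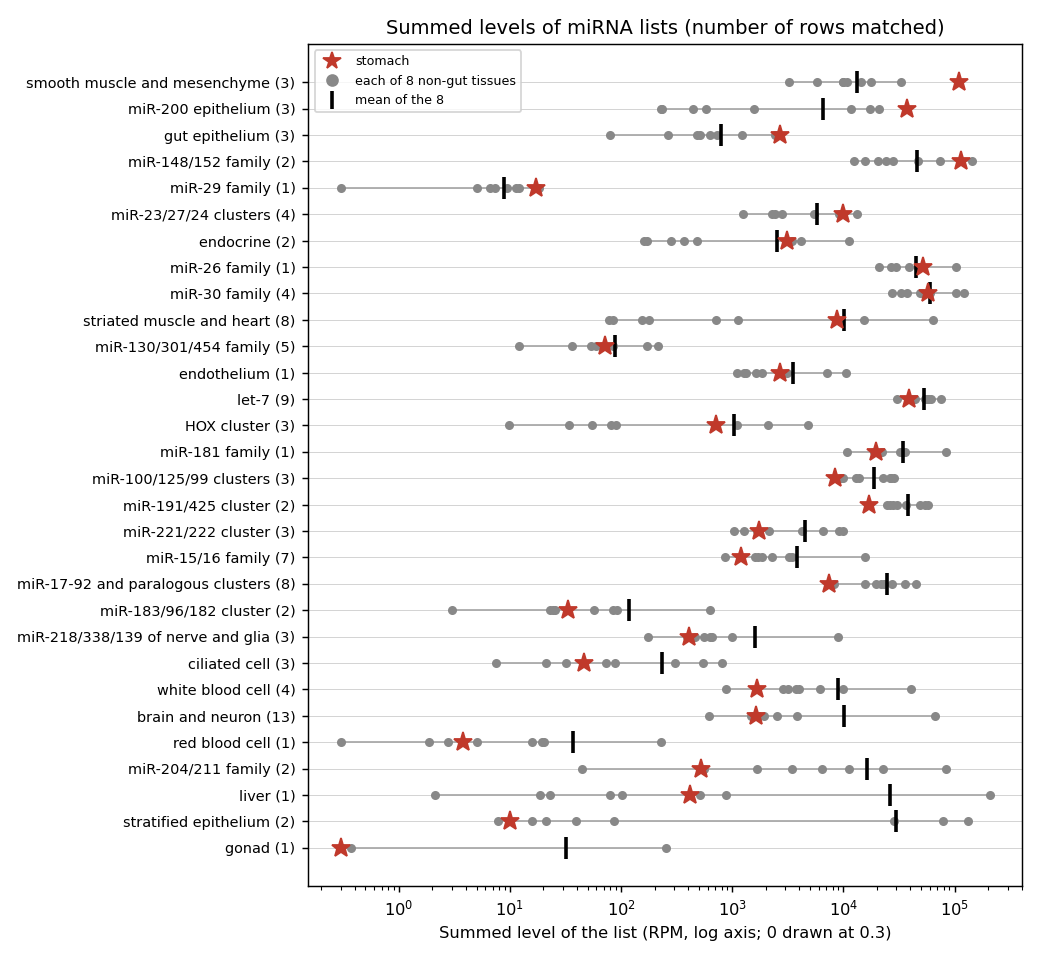
Summed level (RPM, log axis) of each miRNA list with a compared row in stomach (star), in each of the 8 non-gut tissues (dots) and in their mean (black bar), with the number of matched rows in brackets and lists ordered by the fold of stomach over the mean. Stars lie right of every dot for the smooth muscle, miR-200 and gut epithelium lists and left of every dot for the lists of miR-17-92, of miR-100 with its neighbours and of miR-191. With other scalings jaw skin passes stomach in the gut epithelium list and stomach leaves the last place in that of miR-191.

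The 14 rows below every non-gut library, named after their values were seen, held both abundant and scarce ones. miR-125b-5p had 6752 RPM in stomach [6624 to 6881], against 16930 ± 7703 RPM, and the lowest non-gut library was liver at 8068 RPM. let-7c-5p had 2390 RPM in stomach [2315 to 2468], against 7057 ± 3945 RPM, with spleen lowest at 2769 RPM. Small intestine was low in both, at 5709 and 2287 RPM. These 2 rows had a counting interval clear of the lowest library. In the other 12 the lowest non-gut library lay inside the stomach interval, so that the order was not resolved at this depth. Of these, miR-106-5p and miR-15c had 121.5 and 58.9 RPM in stomach, against lowest libraries of 126.95 and 61.2 RPM. miR-34a, induced by p53 in mammals, had 5.68 RPM in stomach [2.6 to 10.8], against 40.4 ± 28.6 RPM. miR-18b had 1.89 RPM in stomach, which is 3 reads, against 26.6 RPM, and miR-203-5p is given above. The other 7 carried N numbers and had 1.26 to 18.9 RPM in stomach.

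Across the 186 rows, log2 levels (RPM + 1) of stomach correlated most with small intestine (Pearson r = 0.92), followed by heart (0.87), tongue (0.82) and cloaca (0.79). Spleen (0.78), liver (0.77), testis (0.75), jaw skin (0.75) and brain (0.71) came after. These are correlations across miRNAs of 1 stomach library, which share the abundant rows of every tissue and were partly selected by the stomach level, and they are a description. Brain had 38 rows that were 4-fold higher and 42 that were 4-fold lower in stomach, while heart had 17 and 20.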

How the data were processed

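Small RNA libraries were made from total RNA of flash-frozen tissue, per the labels' protocols. The authors deposited RPM values made with the quantifier of miRDeep2 (version 2_0_0_8), which the file's first line names. Bedtools 2.26.0, Bowtie 1.2.0 and bcl2fastq 2 are named without a role in the submitters' processing notes. The genome build and the total used for scaling are not given in the sources used here. Listed rows took 55.3% to 81.5% of each library's RPM. In addition 1 column of values, which no sample label matches, was left out. Rows repeating a mature name were dropped (7 of 654).

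The worth of 1 read was taken as the largest step of which at least 85% of low values (up to 40 reads) were whole multiples within 0.1 reads. Between 88.8% and 94.4% were, and the rest were fractions, so no count model was fitted. Read numbers, Poisson intervals and the floor of 3 reads take RPM divided by that worth as reads, which is approximate for the fractional values. Testis, heart and brain columns were averaged within a tissue, the 8 tissue means were averaged, and the fold was stomach over that mean. Rows whose stomach level and non-gut mean averaged at least 10 RPM were called at 4-fold or 1/4. No test was made, as there is 1 stomach library. SDs are over the 8 tissues unless stated.

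In total 31 lists of miRNA families were matched by name. Named rows were the 15 largest folds (at least 100 RPM in stomach), the 10 smallest (at least 100 RPM in the non-gut mean), the 15 most abundant, all rows of the 6 lists of stomach wall or gut, and the highest row of each other list. Other named rows were chosen after their values were seen. The lists and the comparison were chosen with earlier results of these data known. Folds were checked on values with known answers. Python 3.11.15, pandas 2.3.3, numpy 2.4.6, scipy 1.17.1 and matplotlib 3.10.9 were used. Alternatives changed the summary of tissues, the scaling, the pseudocount, the filter, the threshold and the tissues or libraries included.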

Additional observations from a re-analysis of the deposited data

Results flagged for a closer look

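In testis, the non-gut tissue with 4 libraries, 4 of 51 named rows had a library far from the other 3. Chance gives about 1 in 20 for like libraries and unrelated rows, so this number is little above it. The testis libraries come from both runts and normal hatchlings, and some named rows share reads, so that figure is only a rough guide. miR-122-5p was at 3152 RPM in a testis library of a runt, against 43.3 to 285.9 RPM in the others. miR-499-3p was at 79.8 RPM in the other testis library of a runt, against 0 to 9.63 RPM. In 1 normal hatchling's testis miR-205a was at 8.15 RPM, against 34.96 to 39.7 RPM, and miR-150 at 2189 RPM, against 3785 to 4106 RPM. In that library miR-N444 took 74.7% of the listed reads, against 38.4% to 50.6% in the other testis libraries. Whether this lowered the RPM of miR-205a and miR-150 there was not tested. Testis was not the highest tissue in any of the 4 flagged rows, and leaving out each testis library moved none of the 4 folds by over 1.5 times.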

How the results depend on the processing

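The numbers of rows past 4-fold depended on how the 8 tissues were summarised and on the filter. Higher rows numbered 26 against the median of the tissues, 23 against their geometric mean, 9 with RPM + 10 and 9 with a filter of 100 RPM, compared with 14. Lower rows numbered 11, 17 and 19 against the median, the geometric mean and with that filter, 86 when libraries were scaled without the 2 highest rows, 289 with no filter and 94 at 2-fold, compared with 48. Several of these settings also changed how many rows were compared, which was 186 in the main setting. It was 161 with the median, 164 with the geometric mean and 103 with the filter of 100 RPM. Scaling without the 2 highest rows left 244 rows, and no filter left 647. Rows above every library fell to 9 with the filter of 100 RPM. Rows below every library numbered 33 with the same scaling, 23 with no filter, 5 with the filter of 100 RPM and 9 with small intestine included. Leaving out 1 library of testis, heart or brain gave 13 to 15 higher and 42 to 52 lower rows. Leaving out 1 whole tissue gave 13 to 15 higher and 43 to 55 lower rows. miR-122-5p, the sole liver row, changed sign, with log2 folds of 2.20 (median), 1.21 (geometric mean) and 0.84 (without liver). With small intestine included, miR-215-5p had a log2 fold of -2.17 and miR-194 of -0.72. Of the 9 named rows called higher, 5 kept their side of 4-fold in all 27 alternatives, and of 12 named rows called lower with a level in stomach 5 did. Scaling shifted the median log2 fold by -0.39 to 0.15. No paired analysis was possible because the comparison has 1 stomach library and no test. At a depth of 1580000 reads, a level of 0 in stomach allows up to 1.9 RPM.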
